A study of Mus musculus with 6 samples.

Results

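Most genes described here encode Rab GTPases, the small GTP-binding proteins that direct vesicle traffic, or proteins named for binding, activating or inactivating them. They were taken as every gene symbol of the deposited matrices that begins with Rab followed by a digit, gef, gap, ep or if, with at least 50 unique molecular identifiers (UMIs, each standing for 1 captured transcript) over all 6 libraries. The pattern matched 79 of 31053 genes, and 69 passed the UMI minimum. Among these 69, Rab10os and Rab26os are antisense genes, not protein-coding ones. Rab25 with 98 UMIs and Rab30 with 99 were the members just inside it, and Rab38 with 38 and Rab33a with 32 were just outside. Levels, not changes, set that minimum. Rabgef1 in neutrophils was singled out with earlier results of these data known, so its p-values are not independent support.

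The libraries hold CD45-positive, propidium iodide-negative cells sorted from mouse brain (C57BL/6 background), read at the 3' end of transcripts on a droplet platform. Mice were naive, or were taken 1 h or 3 h after reperfusion that followed 60 min of occlusion of the middle cerebral artery by a filament. Each time was sampled in Cd300a-fl/fl mice, in which Cd300a exons lie between loxP sites (fl/fl), and in Cd300a-fl/fl mice that also carried Lyz2-cre, a Cre recombinase driven from the lysozyme gene of myeloid cells (Lyz2-cre). All mice therefore carried the floxed allele. There was 1 library for each of the 6 combinations, and 3 brains were pooled in each. A time was therefore read in 2 libraries of different genotype. The p-values rest on the spread between pools that genotype and time leave over, moderated by the spread of other genes. A genotype difference that varies with time cannot be told from that spread.

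A Rab protein is active when bound to GTP and attached to a membrane, where it recruits effectors that move, tether or fuse vesicles. Exchange factors load GTP and so switch a Rab on, and GTPase-activating proteins switch it off. In phagocytes, Rab5 proteins mark early endosomes and young phagosomes, Rab7 marks late endosomes and lysosomes, Rab11 proteins serve recycling, and Rab27a and the Rab3 proteins serve release of granules. Rabgef1 (Rabex-5) is an exchange factor that switches Rab5 on.

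The libraries held 35479437 to 48478866 UMIs, and 47103 of 51005 barcodes were used as cells, between 6721 and 9622 in each. Any pair of libraries shared 12 to 30 barcode sequences. Cells were clustered without the Rab genes and named from marker genes. Microglia-like cells numbered 4744 to 7323 in a library, monocyte-like cells 118 to 816 and neutrophil-like cells 150 to 1058. NK, T and B cell-like classes also had at least 20 cells in every library. Cd300a, the targeted gene, stood at 128 to 256 CPM in neutrophil-like cells of the fl/fl libraries and at 9.85 to 16.2 in those of the Lyz2-cre libraries. In monocyte-like cells it stood at 181 to 438 and 89.2 to 226, and in microglia-like cells at 172 to 212 and 137 to 171. The labels do not name the floxed exons, so a 3' tag may lie outside them.

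Levels below are scaled counts (CPM): UMIs of a gene per 1000000 UMIs of that class in that library. They are shares of the class's RNA and are not scaled by gene length. Where values come in pairs, the fl/fl library is given before the Lyz2-cre library. Intervals are exact Poisson 95% intervals, which cover counting error only.

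Which leukocytes carried which members was described over the 6 classes, with no test. The members together made up 3410 to 3758 CPM in microglia-like cells, 3079 to 3262 in monocyte-like cells and 2843 to 4297 in neutrophil-like cells. The range was 2727 to 3024 in NK cell-like, 2213 to 2528 in T cell-like and 1963 to 2330 in B cell-like cells. By the median of the 6 libraries, 24 members were highest in microglia-like cells, 18 in neutrophil-like, 12 in monocyte-like, 7 in NK cell-like, 4 in T cell-like and 4 in B cell-like cells. For 15 of the 69, every library of the highest class lay above every library of the other classes, against 17.4% of the 13996 genes with at least 50 UMIs. Those genes include the ones the cells were clustered on. By class, 8 members stood apart in microglia-like cells (10.2% of those genes) and 3 in neutrophil-like cells (2.26%). In monocyte-like and B cell-like cells 2 each stood apart (2.1% and 1.25%), and 0 in NK cell-like and T cell-like cells (0.857% and 0.757%).

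Rab3il1, an exchange factor for secretory Rab proteins, had a median of 254 CPM in microglia-like cells against 22.9 in monocyte-like cells, the next class. Rab34, a Rab of lysosome positioning and macropinocytosis, had a median of 25.6 CPM in microglia-like cells and 0.996 in NK cell-like cells. Both were higher in each microglia-like library than in any library of another class. The same held for Rab39, Rab11fip5 and Rab6b, with medians of 30.9, 36.1 and 60.5 CPM, and for Rab42, Rab12 and Rab14. Rab14, which acts between the Golgi and early endosomes, was the most abundant member in microglia-like cells, with 509 to 574 CPM.

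Neutrophil-like cells stood apart for 3 members, against 2.26% of the genes with at least 50 UMIs. Rab44, a large Rab with calcium-binding motifs, ranged from 57.7 to 262 CPM there against at most 38.3 in any library of another class. Rab11fip1, a Rab11 effector, ranged from 79.5 to 158 CPM against at most 44.8. Rab6a, a Golgi Rab, ranged from 162 to 227 CPM against at most 104. Rabgef1 and Rab3d were also highest there by their medians, 84.4 and 103 CPM, but overlapped other classes. Monocyte-like cells stood apart for Rab29, with a median of 36.5 CPM against 11.9 in NK cell-like cells, and for Rab5c, with 178 against 124.5 in microglia-like cells. Rab7b, which acts between late endosomes and the Golgi, was highest in monocyte-like cells by its median, 22.8 CPM against 1.38 in microglia-like cells, but its highest microglia-like library, with 21.8 CPM, overlapped them.

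Among lymphocytes, Rab30, a Golgi Rab, had a median of 17.5 CPM in B cell-like cells and 0.18 in microglia-like cells, the next class, from 43 UMIs in B cell-like cells. Rabep2, a Rab5 effector, ranged from 42.5 to 96.5 CPM in B cell-like cells and reached 39.1 elsewhere. Rab27b, a partner of Rab27a in granule release, ranged from 23.2 to 91.1 CPM in NK cell-like cells and from 9.80 to 42.4 in T cell-like cells, which overlapped. It had 0 UMIs in all neutrophil-like cells and 1 each in microglia-like and monocyte-like cells. Rab19, Rab37, Rabif and Rab22a were also highest in NK cell-like cells by their medians (52.3, 64.2, 33.4 and 66.1 CPM), and Rab4a and Rab10os in T cell-like cells (21.0 and 39.5 CPM), all with overlap. Rabgap1l, a GTPase-activating protein, had a median of 161 CPM in B cell-like cells and 88.7 in NK cell-like cells, with overlap. The heat map of member levels by class shows the medians.

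**Figure D1:**
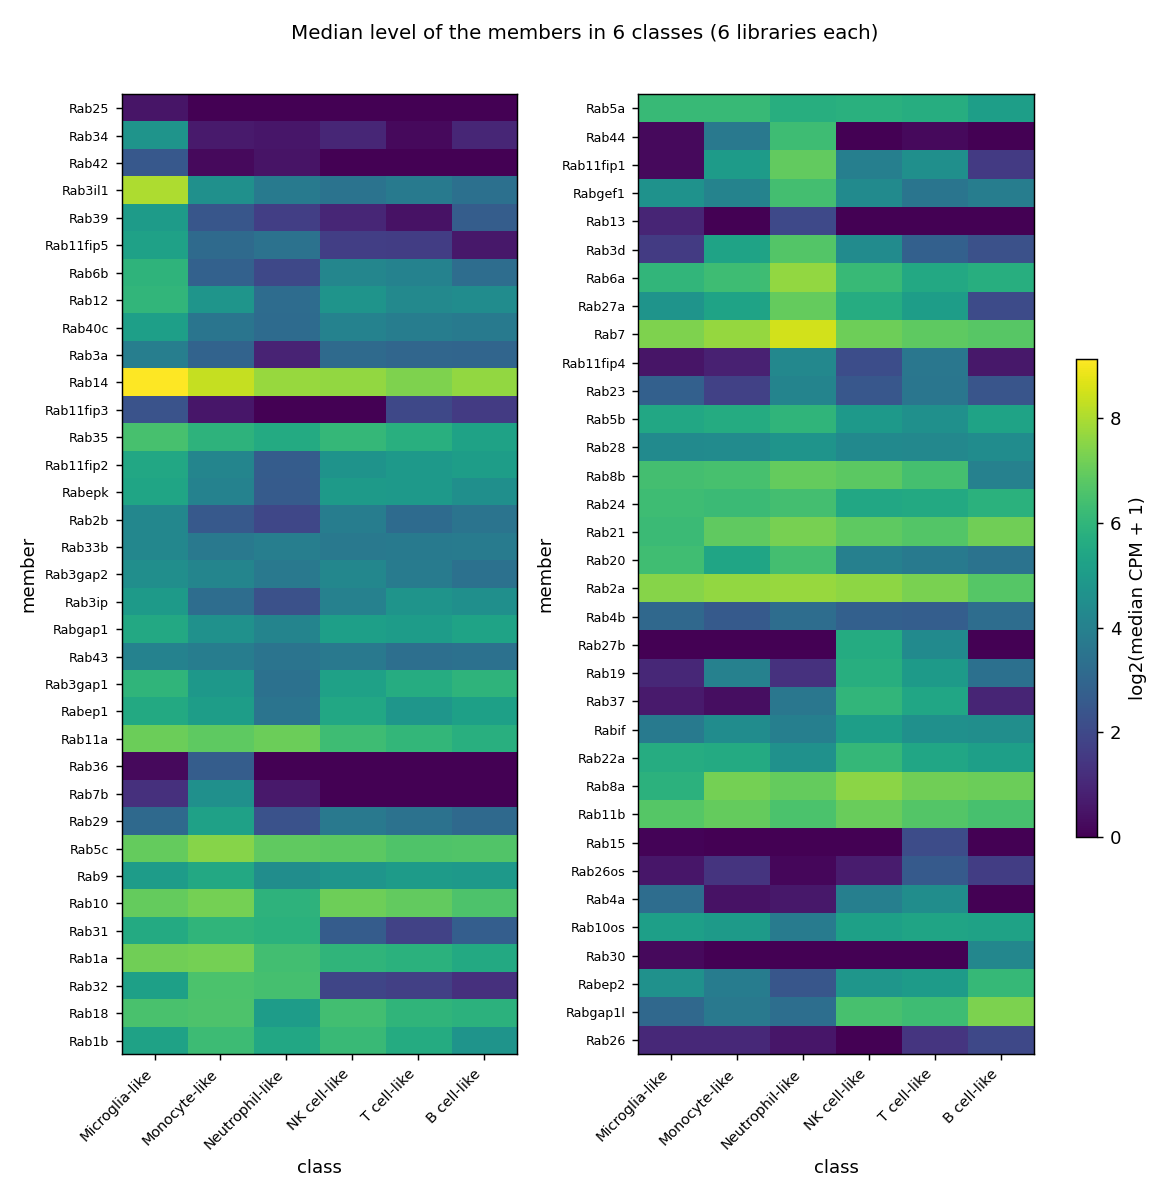
Median level of the 69 members over the 6 libraries in 6 cell classes, as log2(median CPM + 1) by colour. Members are ordered by the class in which they were highest, and colour is not scaled by member. Rab3il1 and Rab14 are brightest under microglia-like and Rab44, Rab11fip1 and Rab6a under neutrophil-like. Abundant members are bright in other classes too, such as Rab14 with 559 CPM in microglia-like and 320 in monocyte-like cells.

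Rabgef1 was set against the family in neutrophil-like cells. The gene lies on the plus strand of chromosome 5 (chr5:130171798-130214342, GRCm38) and is protein-coding. It stood at 3.17 CPM (interval 0.384 to 11.5, from 2 UMIs) in the fl/fl naive library and at 12.6 CPM (7.82 to 19.3, from 21 UMIs) in the Lyz2-cre naive library. At 1 h it stood at 71.9 CPM (55.9 to 91.2) and 96.8 CPM (87.9 to 106). At 3 h it stood at 119 CPM (108 to 132) and 141 CPM (127 to 156). Every library after occlusion lay above both naive libraries, and both 3 h libraries lay above both 1 h libraries.

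Changes were read from edgeR's quasi-likelihood fit of UMIs summed per class and library, with genotype and time as terms and Benjamini-Hochberg adjustment over all genes tested in the class. A gene is called here when the adjusted p is under 0.05. Rabgef1 rose 10.3-fold at 1 h (log2 3.37 ± 0.38 SE, edgeR adjusted p = 0.00231) and 17.8-fold at 3 h (log2 4.15 ± 0.38 SE, edgeR adjusted p = 3.96e-05), against the same 2 naive libraries. The step from 1 h to 3 h, a log2 difference of 0.79, did not pass (edgeR adjusted p = 0.0569). When cells under 1000 genes or over 5% mitochondrial UMIs were left out, which left 73 to 487 neutrophil-like cells in a library, the 1 h change was no longer called (log2 3.13, edgeR adjusted p = 0.201). Without the Lyz2-cre naive library the changes were log2 4.76 at 1 h and 5.56 at 3 h. The 1 h to 3 h step was called without either Lyz2-cre library of those times (log2 1.02 and 1.24).

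As a share of all UMIs of the family in neutrophil-like cells, Rabgef1 went from 0.0996% and 0.444% in the naive libraries to 2.08% and 3.32% at 1 h and 2.98% and 3.28% at 3 h. By UMIs among the 69 members it ranked 53 and 39 in naive mice, 19 and 13 after 1 h, and 13 and 10 after 3 h. In microglia-like cells its rank was 46 and 45 in the naive libraries and 28 and 33 at 3 h.

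The neutrophil-like class changed in makeup between the times. Its cluster with the granule genes Ltf, Lcn2, Ngp and Camp among its 10 leading genes held 40% and 52.1% of the class in naive mice, 13.1% and 41.1% after 1 h, and 2.84% and 3.01% after 3 h. A cluster led by Retnlg, Ifitm1 and Cxcr2 held 1.33% and 0.651% in the naive libraries and 90.5% and 91.7% at 3 h. Other sums moved in the class as well. The 5 neutrophil maturity genes summed to 3438 and 2743 CPM in naive mice, 5896 and 2978 after 1 h, and 7446 and 9748 after 3 h. The 10 dissociation and immediate early genes summed to 6940 and 4223 CPM, then 10890 and 5631, then 10220 and 8638. For both lists the 3 h libraries lay above the naive ones, and their part in the Rabgef1 values was not tested. Within the remaining cluster, which held 58.7% and 47.2% of naive cells, Rabgef1 stood at 8.17 and 14.6 CPM in naive mice, 99.9 and 165 after 1 h, and 129 and 118 after 3 h, the last pair from 20 and 12 UMIs. In the cluster with those granule genes it stood at 0 and 12.02 CPM (0 and 15 UMIs), then 20.3 and 58.8, then 13.8 and 13.4 (4 and 3 UMIs). The 3 h intervals there, 3.77 to 35.4 and 2.76 to 39.1, included the Lyz2-cre naive value. In the cluster led by Retnlg, Ifitm1 and Cxcr2, Rabgef1 stood at 129 and 154 CPM at 3 h. Its rise at 3 h was also called in cells with granule genes under 1% of UMIs (log2 3.98, edgeR adjusted p = 2.14e-06).

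In the other classes with at least 20 cells in every library Rabgef1 was lower after occlusion than in neutrophil-like cells. It stood at 13.4 and 15.9 CPM in naive microglia-like cells, 27.2 and 21.5 at 1 h, and 44.7 and 32.9 at 3 h. These groups did not overlap, and the gene rose by log2 0.82 ± 0.17 at 1 h (edgeR adjusted p = 0.0159) and log2 1.47 ± 0.17 at 3 h (edgeR adjusted p = 0.000773). The 1 h call was lost without the fl/fl naive library or without either 1 h library. Monocyte-like cells held 10.1 and 14.8 CPM in the naive libraries, 10.6 and 17.1 at 1 h, which overlapped them, and 32.6 and 36.0 at 3 h, where it rose by log2 1.63 ± 0.25 (edgeR adjusted p = 0.000430). In NK cell-like cells, not tested for change, it stood at 10.2 and 15.6 CPM in naive mice, 34.7 and 5.97 after 1 h, and 29.8 and 23.4 after 3 h, from 3 to 13 UMIs in a library. Both 3 h values lay above both naive ones, and the 1 h values lay on either side of all of these. In T and B cell-like cells, not tested for change, it lay between 6.67 and 17.7 CPM in every library, from 3 to 35 UMIs. Both 1 h libraries lay below both naive ones in each of these classes. They held 8.57 and 8.34 CPM (7 and 4 UMIs) in T cell-like cells, and 6.84 and 10.8 (3 and 11 UMIs) in B cell-like cells. The 3 h values overlapped the naive ones in both. The small class of border-associated macrophage-like cells had 1 and 2 Rabgef1 UMIs in the naive libraries (7.46 and 12.1 CPM) and 18 and 9 at 3 h (133 and 73.5 CPM). The plot of Rabgef1 by class shows the values with their intervals.

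**Figure D2:**
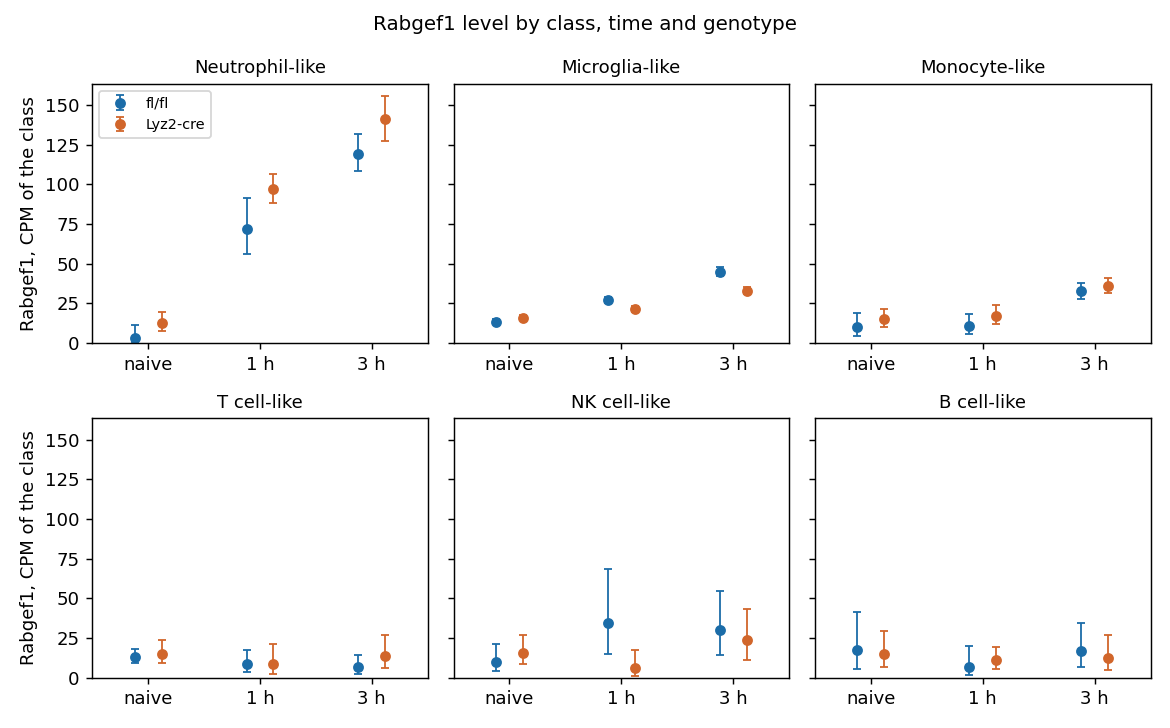
Rabgef1 level in CPM (vertical axis, from 0) by time in 6 cell classes; points are single libraries (blue fl/fl, orange Lyz2-cre) and bars are exact Poisson 95% intervals. In neutrophil-like cells the naive libraries sit at 3.17 and 12.6 CPM and the 3 h libraries at 119 and 141, while T and B cell-like cells stay under 18 CPM.

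Among the other members of neutrophil-like cells, Rab20 and Rab7, of phagosomes and late endosomes, rose together. Rab20, a Rab of maturing phagosomes on the minus strand of chromosome 8 (chr8:11453518-11478710), which overlaps the gene model Gm20100 on its own strand, stood at 25.4 and 19.8 CPM in naive mice, 105 and 64.2 after 1 h, and 291 and 396 after 3 h. The 3 times did not overlap, and Rab20 rose by log2 2.01 ± 0.29 at 1 h (edgeR adjusted p = 0.00596) and log2 4.23 ± 0.29 at 3 h (edgeR adjusted p = 8.84e-06). Without the fl/fl naive or the Lyz2-cre naive library the 1 h change was not called (edgeR adjusted p = 0.0744 and 0.241). Within the cluster led by granule genes Rab20 stood at 15.9 and 18.4 CPM in naive mice and 58.7 and 40.2 after 3 h. In the cluster that held 58.7% and 47.2% of naive cells it went from 40.8 and 24.3 to 174 and 177. The cluster led by Retnlg, Ifitm1 and Cxcr2 held 320 and 438 CPM at 3 h. The part of the class's makeup in the rise of Rab20 was not tested. Rab7, the late endosome Rab, stood at 224 and 208 CPM, then 436 and 293, then 652 and 782. It rose by log2 2.02 ± 0.24 at 3 h (edgeR adjusted p = 0.000136) and was the most abundant member in all 4 libraries after occlusion.

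At 1 h against naive, 2 of 53 members tested in neutrophil-like cells were called, Rabgef1 and Rab20, against 0.998% of all 7719 genes tested (0.972% up and 0.0259% down). At 3 h, 9 rose and 3 fell, 12 in all, against 29.8% of all genes called (18.2% up and 11.6% down). From 1 h to 3 h, 10 rose and 2 fell, against 26.5% of all genes (15.6% up and 10.9% down). The median log2 change of the members at 3 h was 0.26, against -0.06 over all genes tested. Of the 12 calls at 3 h, 7 held in all 13 settings tried (Rabgef1, Rab20, Rab7, Rab44, Rab9, Rab8b and Rab3d). The other 5 were each lost without at least 1 library. These were fl/fl naive, Lyz2-cre naive or fl/fl 3 h for Rab27a and Rab31, fl/fl naive, Lyz2-cre naive or Lyz2-cre 3 h for Rabep1, fl/fl naive or fl/fl 3 h for Rab3il1, and Lyz2-cre naive or Lyz2-cre 3 h for Rab12. The 16 members not tested had too few UMIs in this class.

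Granule and secretion members moved in opposite directions. Rab44 stood at 63.5 and 57.7 CPM in naive mice, 81.4 and 75.3 after 1 h, and 156 and 262 after 3 h. It rose by log2 2.06 ± 0.25 at 3 h (edgeR adjusted p = 0.000162). Within the cluster led by granule genes it stood at 58.2 and 63.3 CPM in naive mice and 86.4 and 98.2 after 3 h. In the cluster that held 58.7% and 47.2% of naive cells it went from 73.5 and 41.2 to 109 and 108. The cluster led by Retnlg, Ifitm1 and Cxcr2 held 166 and 284 CPM at 3 h. Rab3d, a Rab of secretory granules, stood at 148 and 179 CPM, then 75.1 and 130, then 31.2 and 20.8. It fell by 2.29 on the log2 scale at 3 h (± 0.39 SE, edgeR adjusted p = 0.00229). The 3 h libraries lay apart from the naive ones for both genes.

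The summed level of secondary and tertiary granule genes was also lowest at 3 h, with 64180 and 76220 CPM in naive mice, 39960 and 95550 after 1 h, and 13620 and 12780 after 3 h. Within the cluster with those granule genes Rab3d stood at 185 and 204 CPM in the naive libraries and at 104 and 121 at 3 h. In cells with granule genes under 1% of UMIs it also fell at 3 h (log2 -1.98, edgeR adjusted p = 0.014). Rab27a, needed for granule release, stood at 129 and 120 CPM, then 93.1 and 73.1, then 169 and 169, and rose by log2 0.74 at 3 h. In the low granule cells that change was not called (log2 0.59, edgeR adjusted p = 0.113). Within the cluster with those granule genes Rab27a stood at 122 and 99.4 CPM in the naive libraries and at 111 and 121 at 3 h. In the cluster that held 58.7% and 47.2% of naive cells it stood at 139 and 177, and at 154 and 108 at 3 h. The cluster led by Retnlg, Ifitm1 and Cxcr2 held 175 and 176 CPM at 3 h. The part of the class's makeup in this rise was not tested.

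The remaining risers at 3 h were Rab9, Rab8b, Rabep1 and Rab31. Rab9, which serves return traffic from late endosomes to the Golgi, stood at 15.9 and 16.2 CPM in the naive libraries and at 46.0 and 42.0 at 3 h (log2 1.69 ± 0.30, edgeR adjusted p = 0.00170). Rab8b, which serves traffic to the plasma membrane, stood at 102 and 88.4 CPM and then at 191 and 277 (log2 1.59 ± 0.24, edgeR adjusted p = 0.000683). Rabep1 (rabaptin-5), the Rab5 effector that binds Rabgef1, stood at 7.93 and 8.42 CPM in the naive libraries and at 12.7 and 24.8 at 3 h. It rose by log2 1.45 ± 0.43 (edgeR adjusted p = 0.0259). Rab31, which acts between the Golgi and endosomes, rose by log2 0.82. The Rab5 genes themselves were not called: Rab5a, Rab5b and Rab5c had log2 changes of 0.63, 0.04 and 0.01 at 3 h.

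Rab3il1 and Rab12 fell in neutrophil-like cells, by 1.89 and 1.77 on the log2 scale at 3 h. Rab3il1 stood at 42.8 and 10.8 CPM in naive mice, 23.3 and 13.5 after 1 h, and 4.42 and 5.47 after 3 h. Both genes were highest in microglia-like cells. The summed level of 11 microglia markers in neutrophil-like cells was lowest at 3 h too, at 2834 and 930 CPM, then 3208 and 1735, then 399 and 636, with no marker at 0 in all libraries. Their part in these falls was not tested. Without the fl/fl naive library the difference of Rab3il1 was -1.001 and was not called (edgeR adjusted p = 0.319).

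From 1 h to 3 h in neutrophil-like cells the rises were Rab20 (log2 2.22), Rab44 (1.54), Rab9 (1.25), Rab11fip4 and Rab27a (both 1.19), Rab7 (1.16), Rabep1 (1.12), Rab8b (1.09), Rab31 (1.00) and Rab32 (0.89), a Rab of lysosome-related organelles. Rab3d and Rab3il1 fell by 1.80 and 1.73. For Rabep1 the 1 h and 3 h libraries overlapped. In the low granule cells the difference of Rab3d from 1 h to 3 h was -1.15 and was not called (edgeR adjusted p = 0.112). Rab20, Rab7, Rab44 and Rab27a kept these calls in all 13 settings.

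**Figure D3:**
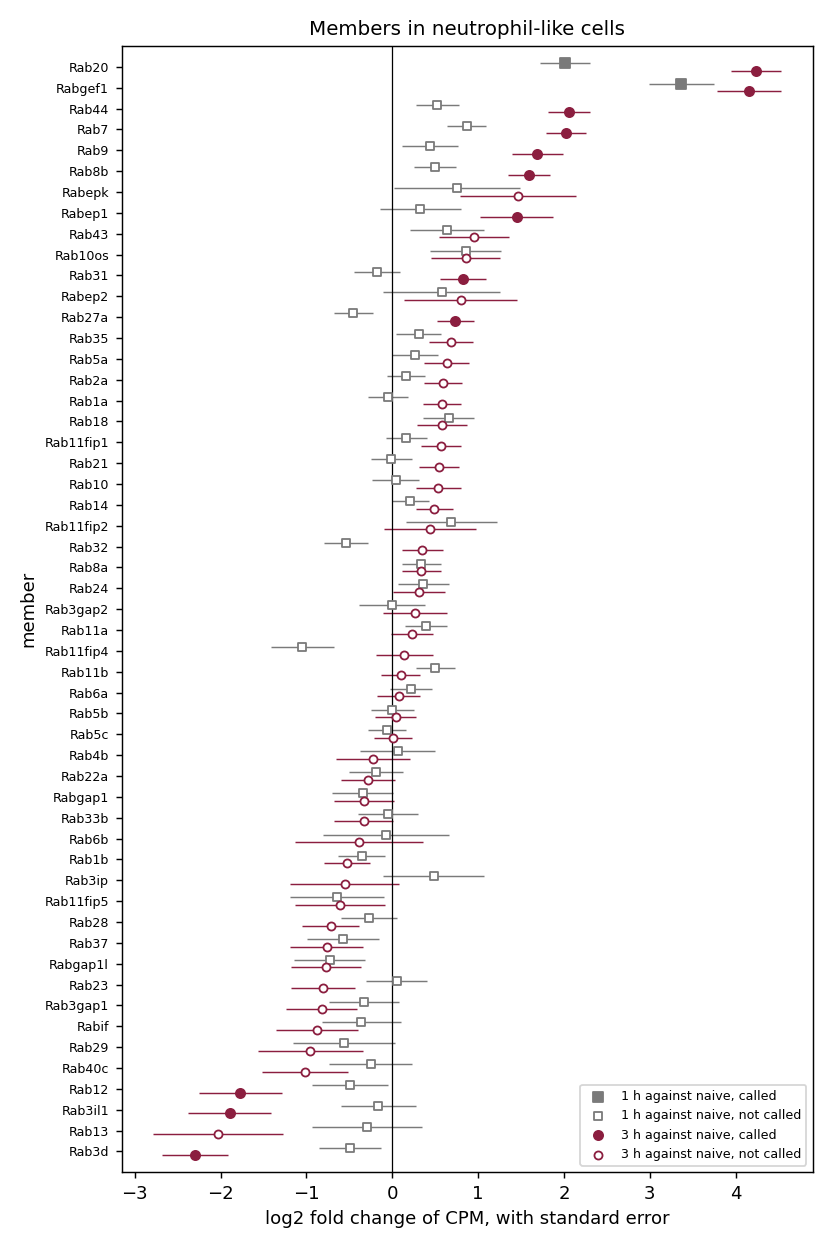
log2 fold change (horizontal axis, with standard error) of the 53 members tested in neutrophil-like cells, at 1 h (squares) and 3 h (circles) against naive; filled symbols were called by edgeR. Rab20 and Rabgef1 are the called genes at 1 h and head the list at 3 h, and Rab3d is at the foot with -2.29.

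The promoters of Rabgef1 and Rab20, the members that rose most in neutrophil-like cells, are shown because the same genes also rose in the other myeloid classes. Both are RefSeq sequences of GRCm38.p6, 250 bases before to 50 bases after the listed start, printed 5' to 3' on the strand of the gene. Rabgef1 is on the plus strand (chr5:130171569-130171868, the first of 3 listed starts) and Rab20 on the minus strand (chr8:11478591-11478890, its only listed start). Capitals mark a match to CACGTG.
Rabgef1: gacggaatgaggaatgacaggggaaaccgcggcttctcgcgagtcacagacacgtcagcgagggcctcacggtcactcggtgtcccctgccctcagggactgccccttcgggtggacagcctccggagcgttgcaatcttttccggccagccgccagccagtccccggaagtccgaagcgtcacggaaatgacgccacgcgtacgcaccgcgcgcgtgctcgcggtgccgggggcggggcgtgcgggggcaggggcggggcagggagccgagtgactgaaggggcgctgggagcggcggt
Rab20: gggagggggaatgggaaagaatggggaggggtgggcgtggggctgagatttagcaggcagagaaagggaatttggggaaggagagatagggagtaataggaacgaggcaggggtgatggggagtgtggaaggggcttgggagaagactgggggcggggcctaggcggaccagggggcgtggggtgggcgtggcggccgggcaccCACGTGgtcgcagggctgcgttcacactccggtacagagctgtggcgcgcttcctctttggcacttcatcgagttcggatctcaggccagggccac
The motifs searched, on both strands, were TGANTCA (AP-1), CACGTG (E-box), GAANNTTC (heat shock) and the NF-kB motif. Rab20 held CACGTG at bases -46 to -41 from the start, and Rabgef1 held none of the motifs in this window. Of the 56 members with a listed promoter, 8 held CACGTG (14.3%), against 7.24% of 27025 genes. TGANTCA was in 1 (1.79% against 7.93%), GAANNTTC in 3 (5.36% against 7.95%) and NF-kB in 5 (8.93% against 8.18%). A match is a run of letters in this window, not a shown binding site. GC content was 70.3% for Rabgef1 and 64.3% for Rab20, against a median of 52.7% over all genes.

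In microglia-like cells many members moved, most by small amounts. At 1 h against naive 8 members rose and 9 fell of 65 tested, against 26.5% of 12809 genes called (13.9% up and 12.6% down). At 3 h 23 rose and 18 fell, or 41 of 65, against 47.5% of all genes (24.4% up and 23.2% down). From 1 h to 3 h 18 rose and 11 fell, against 47.4% (25.3% up and 22.1% down). Without the fl/fl naive library 1 member was called at 1 h and 16 at 3 h. Of the 41 calls at 3 h, 16 held in all 12 settings tried. The share of all genes called was not counted in those settings or without a library. The median log2 change of the members at 3 h was 0.00, against -0.02 over all genes. The 1 h and 3 h comparisons share the naive libraries. The makeup of the class changed as well: 1 of its 10 clusters held 60.8% and 67.5% of the cells in the naive libraries and 0.232% and 0.41% at 3 h.

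The largest rises were in members that were nearly absent from naive microglia-like cells. Rab7b, on the plus strand of chromosome 1 (chr1:131688695-131715439), stood at 0.572 and 0.296 CPM in naive mice, 1.52 and 1.25 after 1 h, and 21.8 and 10.9 after 3 h. It rose by log2 1.79 ± 0.32 at 1 h (edgeR adjusted p = 0.00453) and log2 5.28 ± 0.26 at 3 h (edgeR adjusted p = 1.14e-06). The 1 h change was not called when 1 naive library, of either genotype, was left out. The summed level of 12 monocyte markers in microglia-like cells was 52.0 and 42.3 CPM in naive mice, 254 and 174 after 1 h, and 288 and 238 after 3 h, with no marker at 0 throughout. In monocyte-like cells Rab7b reached 26.4 CPM and those markers 12650 CPM.

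Rab15, a Rab of recycling endosomes on the minus strand of chromosome 12 (chr12:76797960-76822908), had 0 and 1 UMIs in the naive microglia-like cells, 3 and 0 at 1 h, and 100 and 50 at 3 h. The 3 h libraries held 4.82 and 1.70 CPM. The ratio of the pooled 3 h to the pooled naive level was 175 (exact 95% interval 30.9 to 6940), and the change was called (edgeR adjusted p = 5.71e-05). Rab15 passed the UMI minimum only through the 3 h libraries, so this p-value is not independent support. T cell-like cells held 0.373 to 4.17 CPM of Rab15. The 10 T cell markers in microglia-like cells summed to 3.36 and 1.19 CPM in the naive libraries and 1.59 and 0.885 at 3 h. Rab15 lies opposite to a stretch of Fntb, and whether the counting used strand is not given in the sources used here.

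Rab20 in microglia-like cells stood at 61.1 and 61.3 CPM in naive mice, 95.7 and 62.4 after 1 h, and 251.4 and 188 after 3 h. The 3 h libraries stood apart, and Rab20 rose by log2 1.90 ± 0.14 (edgeR adjusted p = 8.10e-05). Rab8b rose by log2 0.98, Rab27a by 0.90, Rab31 by 0.66, Rab21, an early endosome Rab, by 0.56, and Rab1a, of transport from the endoplasmic reticulum, by 0.54. Rab11fip1 and Rab37 were also called, from 0.0715 and 0.0329 CPM to 0.482 and 0.443, and from 0.214 and 0.198 CPM to 0.675 and 1.23. For Rab11fip1 that is 3 UMIs against 23, a ratio of 8.93 (exact 95% interval 2.70 to 46.4). Neither was called with 1 naive library, of either genotype, left out, nor was Rab37 without the Lyz2-cre 3 h library. Both were more abundant in other leukocytes, and 12 neutrophil markers in microglia-like cells summed to 243 and 310 CPM in the naive libraries and 298 and 272 at 3 h. Rab37 lies opposite to Cd300lf.

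Rabepk, the Rab9 effector p40, changed in both directions. It stood at 41.3 and 41.8 CPM in naive mice, 17.0 and 14.3 after 1 h, and 50.8 and 38.7 after 3 h. It fell by 1.31 on the log2 scale at 1 h (± 0.12 SE, edgeR adjusted p = 0.000118) and rose by log2 1.49 from 1 h to 3 h (± 0.12 SE, edgeR adjusted p = 4.07e-05). The 1 h libraries lay below all others. The summed level of 10 dissociation and immediate early genes was also lowest at 1 h, with 29630 and 25010 CPM, then 12050 and 9215, then 26510 and 20500. Its part in the Rabepk values was not tested.

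Falls at 3 h in microglia-like cells included members of secretion. Rab3a, known from synaptic vesicles, stood at 21.5 and 18.4 CPM in naive mice, 14.3 and 13.5 after 1 h, and 6.27 and 7.73 after 3 h. It fell by 1.42 on the log2 scale at 3 h (± 0.14 SE, edgeR adjusted p = 5.88e-05). Rab3ip (Rabin8), the exchange factor for Rab8, stood at 48.5 and 47.7 CPM, then 30.4 and 31.2, then 21.1 and 22.4, and fell by 1.07 (± 0.09 SE, edgeR adjusted p = 2.42e-05). The 3 times did not overlap for either gene. Rab3il1, highest in this class, stood at 334 and 330 CPM, then 244 and 256, then 250.3 and 252. It fell by 0.32 at 3 h, a call lost without the fl/fl naive library. Rab11fip5, Rab6b and Rab24 fell by 0.66, 0.58 and 0.50. Rab11fip4, a Rab11 effector at 0.715 and 0.757 CPM in naive mice and 0.289 and 0.204 after 3 h, fell by 1.51, a call lost without each of the naive and 3 h libraries in turn.

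Other falls at 3 h were Rab3d by 1.11, Rab4b by 0.63, Rabep2 by 0.44, Rab40c by 0.43, Rab4a by 0.42 and Rab1b by 0.35, and Rab13, of traffic to cell junctions, rose by log2 0.85. Of these 7, Rab40c alone was called in all 12 settings. Rab13 was low in this class, with a median of 0.945 CPM, and the naive and 3 h libraries overlapped for Rab4a. Besides Rabgef1 and Rab7b, the rises at 1 h were Rab26 (log2 1.32), Rab34 (0.58), Rab7 (0.38), Rab21 (0.29), Rab11a (0.26) and Rab11b (0.25). Besides Rabepk, Rab3ip fell by 0.54 at 1 h, Rab39 by 0.45, Rab3a by 0.42, Rab6b by 0.40, Rab33b by 0.38, Rab28 by 0.37, Rab3il1 by 0.30 and Rab1b by 0.28. Of the 17 calls at 1 h, Rabepk alone held in all 12 settings.

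From 1 h to 3 h in microglia-like cells the largest rises were Rab15 (log2 5.92), Rab7b (3.49), Rab26os (2.01), Rabepk (1.49), Rab20 (1.46), Rab13 and Rab27a (both 0.95), Rab8b (0.77), Rab31 (0.68), Rabgef1 (0.65), Rab3gap2 (0.63) and Rab1a (0.57). The recycling Rab genes Rab11a and Rab11b, which had risen at 1 h, fell by 0.48 and 0.50. Rab3a fell by 1.003, Rab3d by 0.87, Rab4b by 0.70, Rab4a by 0.61, Rab11fip5 and Rab40c by 0.55 each, Rab3ip by 0.53, Rab24 by 0.42 and Rab35 by 0.33. For Rab4a the 1 h and 3 h libraries overlapped.

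In monocyte-like cells no member was called at 1 h by edgeR, against 2.38% of 9023 genes (1.35% up and 1.03% down), and 5 of 55 had an unadjusted p under 0.05 (Rab20, Rab18, Rab10os, Rab44 and Rab7b). DESeq2 called 0 as well. No share of all genes was counted at an unadjusted p or by DESeq2. At 3 h 13 rose and 6 fell, or 19 in all, against 28% of all genes called (14.6% up and 13.4% down). From 1 h to 3 h 9 rose and 6 fell, against 19.6% (10.7% up and 8.87% down). Of the 19 calls at 3 h, Rab20, Rab44, Rabgef1, Rab6b and Rab19 held in all 12 settings tried, and 8 members were called without the fl/fl naive library. The share of all genes called in those settings was not counted. The median log2 change of the members at 3 h was -0.04, against -0.02 over all genes.

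Rab44 had the largest rise in this class. It stood at 4.48 and 3.84 CPM in naive mice, 10.6 and 13.04 after 1 h, and 25.5 and 38.3 after 3 h, and rose by log2 3.24 ± 0.33 (edgeR adjusted p = 1.74e-05). The 3 times did not overlap. Rab20 stood at 28.0 and 21.4 CPM, then 52.9 and 26.1, then 92.7 and 90.1, and rose by log2 2.11 ± 0.24 at 3 h (edgeR adjusted p = 4.22e-05). Rab7b rose by log2 1.35, a call lost without the Lyz2-cre naive or the Lyz2-cre 3 h library, and Rab24, linked to autophagy, by 0.74. The summed level of 12 neutrophil markers in monocyte-like cells was 190 and 254 CPM in naive mice, 273 and 1025 after 1 h, and 3001 and 1793 after 3 h. Its part in the rise of Rab44, which is highest in neutrophil-like cells, was not tested.

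The class held a cluster led by Ace and Treml4 and a cluster led by Fn1 and Ccr2, whose share went from 50% and 36.1% in the naive libraries to 80.5% and 82.5% at 3 h. In each cluster Rab44 was higher at 3 h: from 3.02 and 2.22 CPM (1 and 2 UMIs) to 27.2 and 28.0 in the first cluster, and from 5.34 and 5.44 to 25.3 and 39.6 in the other. Rab7b was at 3.02 and 1.11 CPM and then 3.02 and 6.35 in the first cluster, and at 23.1 and 16.3 and then 25.96 and 28.9 in the other.

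Rab6b, a Golgi Rab, and Rab19 fell furthest in monocyte-like cells. Rab6b stood at 11.2 and 10.4 CPM in naive mice, 6.17 and 6.02 after 1 h, and 0.786 and 2.01 after 3 h, and fell by 2.62 on the log2 scale (± 0.51 SE, edgeR adjusted p = 0.00200). Rab19 stood at 22.4 and 25.8 CPM, then 17.6 and 12.5, then 4.12 and 4.73, and fell by 2.24 (± 0.30 SE, edgeR adjusted p = 0.000146). The 3 h libraries lay below all others for both. The 11 microglia markers summed to 3329 and 2216 CPM in monocyte-like cells, then 1895 and 2030, then 529 and 496, and their part in the fall of Rab6b, a microglia-high member, was not tested. Rab33b, Rabgap1l, Rab3d and Rab29 fell by 1.05, 0.88, 0.74 and 0.70.

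The other rises at 3 h in monocyte-like cells were between 0.42 and 0.71 on the log2 scale: Rab27a (0.71), Rab18 (0.70), Rab1a (0.67), Rab21 (0.62), Rab8b (0.56), Rab2a (0.53), Rab32 (0.52) and Rab7 (0.42). From 1 h to 3 h Rab44 (log2 1.57), Rab20 (1.43), Rabgef1 (1.39), Rab1a (0.85), Rab8b (0.74), Rab31 (0.61), Rab32 (0.60), Rab24 (0.51) and Rab21 (0.47) rose. Rab6b, Rab19, Rabgap1l, Rab3d, Rab29 and Rab11b fell by 1.89, 1.57, 1.05, 1.03, 0.68 and 0.53. For Rab21 the 1 h and 3 h libraries overlapped.

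Of 48 members tested in all 3 classes, 5 were called up at 3 h in each, against 5.7% of the 7158 genes tested in all 3: Rab20, Rabgef1, Rab7, Rab8b and Rab27a. Rab3d was called down in each, against 1.68%. DESeq2 called Rab20 and Rabgef1 in each class too. It did not call Rab7, Rab8b or Rab27a in monocyte-like cells, Rab27a in neutrophil-like cells (DESeq2 adjusted p = 0.0833) or Rab3d in microglia-like and monocyte-like cells (DESeq2 adjusted p = 0.0586 and 0.166). Rab24 was called up in monocyte-like and down in microglia-like cells. Within the neutrophil-like clusters with at least 20 cells in each naive and 3 h library, the naive and 3 h levels of Rab27a overlapped. The 3 classes come from the same 6 libraries.

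Whether neutrophil-like and microglia-like cells differed in their change at 3 h was tested with limma on the difference of the classes within each library. Of 52 members tested, 10 were called, 7 higher and 3 lower in neutrophil-like cells, against 20.3% of 7464 genes (11.3% and 9.03%). Rabgef1 changed by log2 2.92 ± 0.31 more in neutrophil-like cells (limma adjusted p = 0.00229), the largest of the members. Rab20 changed by 2.25 ± 0.29 more (limma adjusted p = 0.00304). Rab7 and Rab9 changed by 1.65 and 1.79 more. Without the Lyz2-cre 3 h library no member was called by limma, and Rabgef1 had a difference of 3.33 with an adjusted p of 0.0884. The share of all genes called without a library was not counted. Rabgef1 was chosen for its neutrophil values, so its place among the members is a description.

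**Figure D4:**
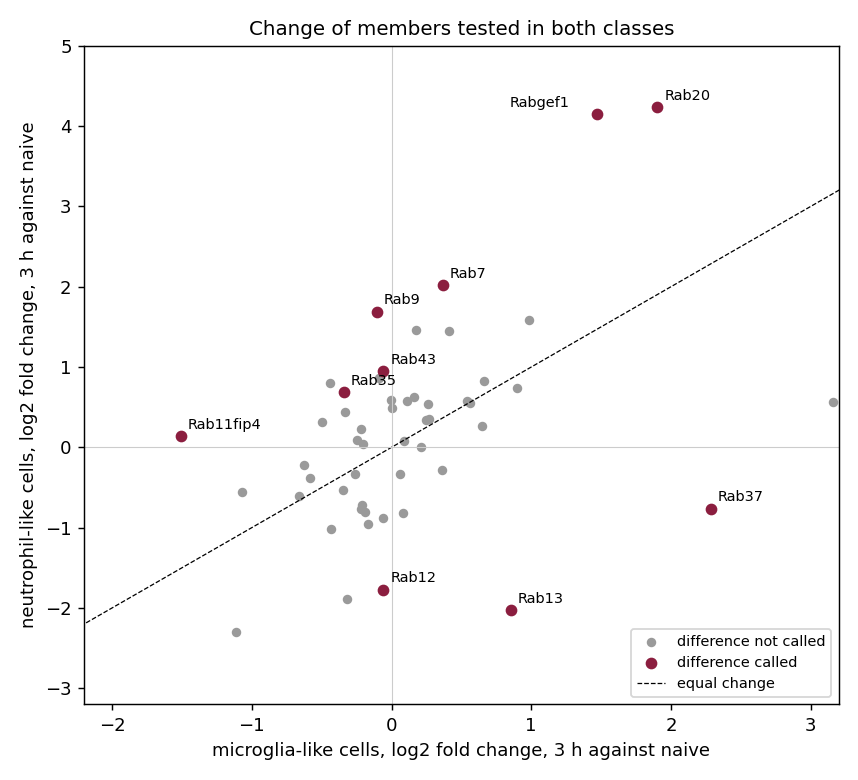
log2 fold change at 3 h against naive in microglia-like (horizontal axis) and neutrophil-like cells (vertical axis) for the 52 members tested in both; red points are the 10 members whose difference limma called, and the dashed line marks equal change. Rabgef1 and Rab20 lie far above the line, and Rab12, Rab13 and Rab37 below it.

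Lyz2-cre and fl/fl libraries were compared over the 3 times. edgeR called no member in any of the 3 classes, against 0.0259% of genes in neutrophil-like cells (0% up, 0.0259% down), 0.0776% in monocyte-like cells (0.0111% up, 0.0665% down) and 0.422% in microglia-like cells (0.039% up, 0.383% down). No share of all genes was counted at an unadjusted p or by DESeq2, so the next counts have none beside them. DESeq2 called 0, 0 and 1 members in neutrophil-like, monocyte-like and microglia-like cells. At an unadjusted p under 0.05 there were 0 of 53 in neutrophil-like cells, 5 of 55 in monocyte-like cells and 10 of 65 in microglia-like cells. The microglia-like genes included Rab7b (log2 -0.87 ± 0.19, edgeR adjusted p = 0.131), Rab15 (-1.59 ± 0.45, edgeR adjusted p = 0.261) and Rab20 (-0.41 ± 0.11, edgeR adjusted p = 0.288). For all 3 the Lyz2-cre library was the lower one at 3 h. The microglia-like cluster led by Gdf15 and Pmp22 held 22.4% of the class in the fl/fl 3 h library and 8.41% in the Lyz2-cre 3 h library, and its part in these values was not tested. Rabgef1 in neutrophil-like cells had a log2 difference of 0.56 ± 0.26 (edgeR adjusted p = 0.881), with the Lyz2-cre library higher at each time. Without the fl/fl 3 h library that difference was 0.95 and was called (edgeR adjusted p = 0.046).

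The members were also counted by role at 3 h, with no test of a group. Over all genes tested, 24.4% were called up and 23.2% down in microglia-like cells, 14.6% and 13.4% in monocyte-like cells, and 18.2% and 11.6% in neutrophil-like cells, and with groups of this size many of the counts lie near these shares. The early endosome group of 11 members (Rab5 proteins, their partners and neighbours) had 6 members up and 3 down in microglia-like cells at 3 h, 2 up and 0 down of 10 tested in monocyte-like cells, and 3 up and 0 down of 10 in neutrophil-like cells. Of 10 late endosome, lysosome and phagosome members, 5 rose and 1 fell in microglia-like cells, 5 rose and 1 fell of 9 in monocyte-like cells, and 3 rose and 1 fell of 8 in neutrophil-like cells. Of 11 recycling members, 2 rose and 6 fell in microglia-like cells, where 2 had risen and 0 fallen at 1 h, and none of the 7 and 8 tested was called in monocyte-like and neutrophil-like cells. Of 15 members of the endoplasmic reticulum and Golgi, 2 rose and 3 fell of 13 tested in microglia-like cells, 3 rose and 3 fell of 14 in monocyte-like cells, and 0 of 10 were called in neutrophil-like cells. Of 13 secretion members, 7 rose and 4 fell of 11 tested in microglia-like cells, 3 rose and 1 fell of 9 in monocyte-like cells, and 3 rose and 2 fell of 10 in neutrophil-like cells. The median log2 changes at 3 h, given for the microglia-like, monocyte-like and neutrophil-like classes in that order, were -0.02, -0.02 and -0.06 over all genes. They were 0.21, 0.16 and 0.59 for the early endosome group and 0.22, 0.42 and 0.91 for the late endosome group. The recycling group had -0.22, -0.15 and 0.33, so its sign differed between the classes. The endoplasmic reticulum and Golgi group had -0.01, -0.27 and 0.17, and the secretion group 0.26, -0.04 and -0.11. A group of 7 other members had -0.19, -0.13 and -0.79. In it, 0 rose and 1 fell in microglia-like cells, and 0 rose and 1 fell of 5 tested in monocyte-like cells. Of 6 tested in neutrophil-like cells, 0 were called. Rab10os and Rab26os were in no role group.

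Other genes that act on or with Rab proteins, outside the symbol pattern that chose the members, were read from lists chosen for their function. The counts at 3 h stand beside 47.5% of all genes called in microglia-like cells, 28% in monocyte-like cells and 29.8% in neutrophil-like cells. Of 29 exchange factors, 8 rose and 5 fell in microglia-like cells at 3 h, 1 rose and 2 fell of 23 tested in monocyte-like cells, and 2 rose and 5 fell of 24 in neutrophil-like cells. Dennd4a, which acts on Rab10, rose by log2 0.80 in microglia-like and 2.19 in neutrophil-like cells, and Ric1, which acts on Rab6, rose by 0.95 in microglia-like cells. Dennd2d and Dennd1a fell by 2.61 and 2.12 in neutrophil-like cells, and Sbf2 and Dennd5a fell by 1.07 and 0.55 in monocyte-like cells, where Rin3 rose by 0.53. Of 28 GTPase-activating proteins, 10 rose and 5 fell of 27 tested in microglia-like cells, 2 rose and 5 fell of 22 in monocyte-like cells, and 3 rose and 1 fell of 19 in neutrophil-like cells. Tbc1d15, which inactivates Rab7, rose by log2 2.18 in neutrophil-like cells, where Tbc1d14 rose by 2.54. Tbc1d2b rose there by 1.46. Tbc1d14 also rose in monocyte-like cells, by 1.36, where Tbc1d8 and Tbc1d16 fell by 1.98 and 1.85. In microglia-like cells Tbc1d10a and Tbc1d1 rose by 1.31 and 1.19 and Tbc1d10c fell by 1.09.

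Beside the same shares over all genes, of 30 effectors 9 rose and 2 fell of 23 tested in microglia-like cells, 3 rose and 7 fell of 19 in monocyte-like cells, and 2 rose and 3 fell of 19 in neutrophil-like cells. Eea1, the tether that Rab5 recruits to early endosomes, rose by log2 2.35 ± 0.34 in neutrophil-like cells (edgeR adjusted p = 0.000580). Optn, a Rab8 effector and autophagy receptor, rose by log2 3.08 in microglia-like and 2.05 in neutrophil-like cells. Sytl1, a Rab27 effector, rose by log2 4.35 ± 1.00 in microglia-like cells and fell by 3.24 in neutrophil-like cells. Rilpl2 rose by 1.61 in microglia-like cells, and Rilpl1, Plekhm1 and Mical1 fell by 1.99, 1.21 and 1.18 in monocyte-like cells. Of 7 genes of Rab prenylation and recycling, 3 rose and 1 fell in microglia-like cells, 0 were called in monocyte-like cells, and 1 rose and 1 fell of 6 tested in neutrophil-like cells. Rabggtb, a subunit of the enzyme that attaches lipid to Rab proteins, rose by 0.58 in microglia-like cells and fell by 2.13 in neutrophil-like cells, where Rabac1 rose by 0.69. Chm and Chml, which present Rab proteins to that enzyme, rose by 0.55 and 0.43 in microglia-like cells.

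Some members share sequence space with other genes. Of the 69, 5 overlap a protein-coding gene on the same strand and 30 overlap a gene on the opposite strand in GENCODE vM21. Rab10os and Rab26os are antisense to Rab10 and Rab26, so their counts are uncertain where the counting ignored strand. Rab26 also overlaps Traf7 on its own strand, so strand alone would not settle its counts. In microglia-like cells Rab26 and Rab26os each rose by log2 1.67 at 3 h, from 0.5004 and 0.428 CPM to 1.40 and 1.40, and from 0.429 and 0.494 CPM to 1.16 and 1.63.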

How the data were processed

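CD45-positive brain cells were counted in 6 libraries, 1 for each genotype and time. Counts of UMIs per gene and cell were made by the authors with Cell Ranger 3.0.2 on mm10, per the submitters' processing notes, and deposited as filtered matrices. The label "naive" in the sample titles was used where the series text gives 0 h.

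Cells with under 300 genes or over 10% mitochondrial UMIs were left out, and 3531 barcodes were removed by doublet rank (0.8% per 1000 barcodes), since the automatic threshold of Scrublet called 433. Cells were clustered with scanpy 1.11.5 on 2000 variable genes without the members (30 components, 15 neighbours, Leiden resolution 1, 21 clusters), and clusters were named from listed markers. 434 cells stayed unnamed. Cells are not replicates: UMIs were summed per class and library and tested with edgeR 4.0.16 (TMM scaling, its low-count filter, genotype plus time, 2 residual degrees of freedom). Because the terms are additive, time effects assume the same shift in both genotypes. The class difference was tested with limma 3.58.1 and, as an alternative, counts with DESeq2 1.42.0. Other alternatives were scaling, filters on genes and cells, doublets, clustering and leaving out each library. The tests were run on simulated data first.

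The members, the gene lists and the named genes were chosen with earlier results of these data known. Named were Rabgef1 in each class, the 12 rising and 12 falling called members with the largest changes in each comparison, the 5 members with the highest ratio to the next class among those with a median of at least 20 CPM, and the 3 called companions of each list with the largest changes. A companion that this rule names is not reported here. Other members named for their overlap or levels were chosen after their values were seen. Positions are those of GENCODE vM21 on GRCm38. Promoters came from RefSeq for 56 of 69 members.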

Additional observations from a re-analysis of the deposited data

Results flagged for a closer look

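A test of the difference between classes called 10 members whose change from naive to 3 h was not the same in neutrophil-like and microglia-like cells. The difference, neutrophil-like minus microglia-like, was 2.92 on the log2 scale for Rabgef1, 2.25 for Rab20, 1.79 for Rab9, 1.65 for Rab7, 1.48 for Rab11fip4, 1.01 for Rab35 and 0.92 for Rab43. It was -1.40 for Rab12, -1.89 for Rab13 and -2.57 for Rab37. Rab13 and Rab37 had log2 changes of -2.03 and -0.76 in neutrophil-like cells, neither called by edgeR, and rose by 0.85 and 2.29 in microglia-like cells. The levels of Rab13 were low, with medians of 3.01 CPM in neutrophil-like and 0.945 CPM in microglia-like cells. Its lowest neutrophil-like library held 0.884 CPM, so its difference between the classes rests on few UMIs. Rab9 rose by 1.69 in neutrophil-like cells and had a log2 change of -0.10 in microglia-like cells. Rab11fip4 had log2 changes of 0.14 and -1.51 in the same order. For fits with a library left out, the share of all genes called was not counted. Limma called 5 of these differences or fewer when 1 of the 4 naive and 3 h libraries was left out, and 0 without the Lyz2-cre 3 h library.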

How the results depend on the processing

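The share of all genes called was counted in the main fits only. The counts below therefore do not tell a change in the members from a change over all genes. In microglia-like cells DESeq2 called 10 members at 1 h, 27 at 3 h and 1 between genotypes, where edgeR called 17, 41 and 0. With no low-count filter 3 were called between genotypes. Leaving out 1 library gave 1 to 23 members at 1 h, 16 to 36 at 3 h, 18 to 30 for 3 h against 1 h and 0 to 2 between genotypes. In monocyte-like cells 2 members were called at 1 h with no low-count filter and 1 each with the stricter cell filter and clustering resolution 0.5, against 0, and DESeq2 called 6 at 3 h and 5 for 3 h against 1 h, against 19 and 15. Leaving out 1 library gave 0 to 1 at 1 h, 8 to 20 at 3 h and 6 to 16 for 3 h against 1 h. In neutrophil-like cells 1 member was called at 1 h with the stricter cell filter, against 2. Leaving out 1 library gave 1 to 4 at 1 h, 8 to 20 at 3 h, 10 to 14 for 3 h against 1 h and 0 to 2 between genotypes.

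For Rabgef1 in neutrophil-like cells the 1 h change was 3.13 with the stricter cell filter, and the step from 1 h to 3 h was 0.92 with no low-count filter and 0.84 with RLE scaling, both called. Leaving out 1 library gave 3.00 to 4.76 at 1 h, 3.80 to 5.56 at 3 h, 0.45 to 1.24 for 3 h against 1 h and 0.36 to 0.95 between genotypes. In monocyte-like cells its 1 h difference, not called, was -0.11 without the Lyz2-cre 1 h library and up to 0.44 without another. The class difference gave 6 members with the stricter cell filter and 0 to 10 with 1 library left out. Of the 15 members whose highest class overlapped no other, 12 stayed so with the stricter cell filter. At resolution 0.5 T and NK cells merged, so that count was not run there. Causes were not tested. Leaving out a library leaves a time with 1 pool, assumed to vary like the others. No paired analysis was possible with replicate numbers as pairs because the labels give none. The edgeR fit already sets the genotypes against each other within each time, and the class difference was taken within each library. Naive neutrophil-like cells held 630260 and 1663138 UMIs, which limits members at a few UMIs.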
